A study of Mus musculus with 24 samples.

Results

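The genes described are the protein tyrosine phosphatases of the *Ptpr* (receptor) and *Ptpn* (non-receptor) families in sorted immature thymocytes of mice that carry a *TLX1* transgene and of control mice. They were chosen by symbol alone, and each gene is read through 1 probe set, the one with the highest mean signal over all arrays among those that match the gene alone. This gave 33 genes, 18 *Ptpr* and 15 *Ptpn*, of 18193 genes on the array. Of these, 24 passed the filter on low signals described with the processing and were tested, and 9 did not (*Ptpn5*, *Ptpn20*, *Ptprb*, *Ptprd*, *Ptprg*, *Ptprn2*, *Ptprr*, *Ptpru* and *Ptprz1*).

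Protein tyrosine phosphatases remove phosphate from tyrosines and so oppose the tyrosine kinases that carry signals from antigen and cytokine receptors. Receptor-type members cross the membrane and carry an extracellular part that can meet other cells or matrix, while non-receptor members are directed in the cell by SH2, PEST, FERM, PDZ or membrane-anchoring parts. In thymocytes, CD45 (*Ptprc*) keeps the Src family kinases ready to signal, and SHP-1 (*Ptpn6*) and LYP/PEP (*Ptpn22*) dampen antigen receptor signals.

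The study sorted thymocytes of *Prkdc Scid/Scid* mice with the *IgHμ-TLX1Tg* transgene (TLX1, 4 pools) and of *Prkdc Scid/Scid* mice without it (control, 4 pools), all 6 to 8 weeks old and of an outbred ICR background by the labels. The study's methods describe a cross of transgenic mice on CD1 with CB17 ICR *Prkdc* mutant mice, and give ages that begin younger. Each pool, made of several mice, gave 1 array of each of 3 stages: DN1 (CD44+CD25-), DN2 (CD44+CD25+) and DN3 (CD44-CD25+), 24 arrays in all. Both groups carry the *Prkdc* mutation, which blocks antigen receptor gene rearrangement, so no group had normal thymocyte development, and the transgene is driven by an immunoglobulin heavy chain promoter, which acts mainly in B cells. The female pools were pools 1 and 4 of TLX1 and pools 2 and 4 of the controls.

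Signals are array units scaled to the same trimmed mean of 150 on every array, and they can be compared for 1 gene across arrays but not between genes. The signal of *Il2ra* (CD25) was 488 to 1170 at DN1, 4270 to 5520 at DN2 and 4320 to 5540 at DN3. That of *Cd44* was 892 to 1910 at DN1, 80.3 to 153 at DN2 and 9.52 to 29 at DN3, so that it was also far lower in DN2 than in DN1 arrays although both gates are CD44+. Of the 8 DN1 arrays, those of control pool 3 and TLX1 pool 2 stood apart. *Rag1*, a recombinase gene of DN2 and later thymocytes, had signals of 3770 and 3190 in these DN1 arrays and of 35.5 to 199 in the other 6. *Cd8a* had 1920 and 1790 against 73.4 to 242, and *Cd4* had 105 and 99.4 against 4.7 to 15.5. The study's sorting record puts more cells of these 2 pools outside the DN1 to DN3 gates than of any other pool. Several of the values that they move, though not all, are given with and without them.

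The first question was how the phosphatases change as thymocytes pass from DN1 to DN2. Of the 33 genes, 6 were higher at DN2, 11 were lower, 7 were not called and 9 lay below the filter, with pools compared within themselves (limma, adjusted p under 0.05). Over all 27022 probe sets tested, 28.5% were higher and 31.2% lower at DN2. Without the 2 pools that stood apart, 6 members were higher and 13 lower. Of the members, *Ptprn*, *Ptprf*, *Ptpn3* and *Ptpn14* rose at least 2-fold (8.34% of all probe sets did), and *Ptpro*, *Ptpn13*, *Ptprv*, *Ptpn4*, *Ptpn9* and *Ptpn22* fell at least 2-fold (11.2%). The counts and these names include *Ptprn* and *Ptpro*, which passed the filter only through the stages where they were high. For both, a difference was built into their being tested. The median log2 difference was -0.48 over the 24 members and -0.06 over all probe sets. In these bulk samples, fewer cells of a type and less RNA per cell cannot be told apart.

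**Figure D1:**
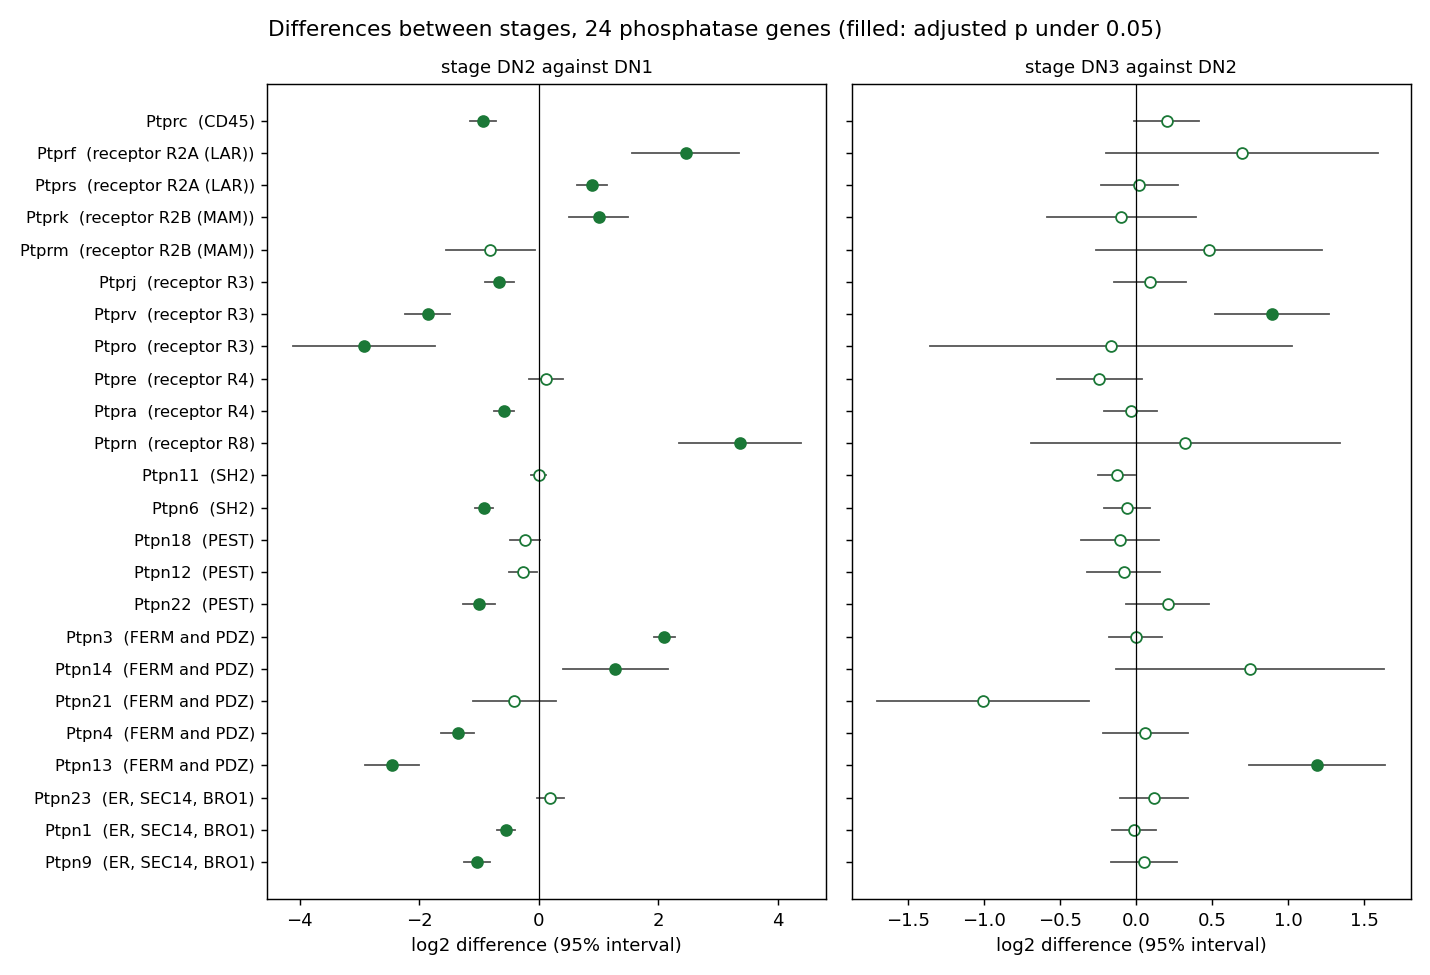
Log2 difference between stages for the 24 phosphatase genes that passed the filter, DN2 minus DN1 on the left and DN3 minus DN2 on the right, over 8 pools, with 95% intervals and with names grouped by family. Filled points have an adjusted p under 0.05 (limma). There are 17 on the left, from -2.93 (*Ptpro*) to 3.37 (*Ptprn*), and 2 on the right (*Ptpn13* and *Ptprv*). *Ptpro* and *Ptprn* passed the filter only through the stages where they were high. The horizontal scales differ.

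Both tested receptors of the LAR group were called higher, where 28.5% of all probe sets were. Receptors of this group bind heparan sulphate and other matrix ligands in neurons and epithelia. *Ptprf* (LAR) had signals of 60.3 to 931 at DN1 (median 83.3), 645 to 870 at DN2 (median 793) and 1050 to 1430 at DN3 (median 1240). The 2 DN1 arrays that stood apart were the highest, at 931 in control pool 3, above all DN2 arrays, and 507 in TLX1 pool 2, below them. The other 6 lay between 60.3 and 135. *Ptprf* rose by 2.46 ± 0.42 on the log2 scale (SE, n = 8 pools, adjusted p = 0.000146 with limma), and by 3.20 ± 0.13 without these 2 pools (n = 6). It rose in 7 of 8 pools. Of all probe sets, 17.1% were higher and 19.7% lower in 8 of 8, a stricter criterion that *Ptprf* did not meet. Its 3 probe sets all rose (adjusted p up to 0.0278 with no filter).

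*Ptprs* (PTPσ), the second LAR receptor, had signals of 252 to 536 at DN1 (median 329) and 447 to 814 at DN2 (median 654). It rose in 8 of 8 pools, by 0.89 ± 0.12 (adjusted p = 1.55e-05), but its weaker probe sets did not follow, and the median of its probe sets differed by 0.13 (adjusted p = 0.545). *Ptprk*, of the homophilic MAM-domain receptors, had low signals, 7.31 to 28.5 at DN1 (median 13.9) and 20.2 to 52.6 at DN2 (median 26.6), and rose by 1.00 ± 0.23 (adjusted p = 0.00166). It rose in 6 of 8 pools, and the exceptions were the 2 pools that stood apart at DN1, where it was 28.5 and 22.4. Without them the rise was 1.36 ± 0.15. *Ptprm*, of the same group, was not called (-0.82, 95% interval -1.56 to -0.07, adjusted p = 0.0562).

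*Ptprn* (IA-2), a catalytically inactive receptor of secretory granules in neuroendocrine cells, had the largest log2 difference among the called members. Its signals were 0.809 to 17.3 at DN1 (median 6.48), 29.1 to 100 at DN2 (median 65.9) and 45.7 to 101 at DN3 (median 79.5). No DN1 array reached the lowest DN2 array, and *Ptprn* rose in 8 of 8 pools, by 3.37 ± 0.47 (adjusted p = 2.76e-05). It passed the filter only through DN2 and DN3 (mean log2 signal of 2.53 at DN1, under the threshold of 3.17), so that a difference was built into its being tested. The size of this difference depends on the floor of 1, and with an offset of 32 added before the logarithm it was 1.23.

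Of the R3 receptors, which carry fibronectin repeats, the 3 tested were called lower, where 31.2% of all probe sets were. *Ptpro* had signals of 14.9 to 60 at DN1 (median 44.8) and 1.23 to 14 at DN2 (median 6.26). Each DN1 array lay above each DN2 array, and the lowest DN1 array was that of control pool 3. *Ptpro* fell in 8 of 8 pools, by 2.93 ± 0.56 on the log2 scale (adjusted p = 0.000391). It passed the filter only through DN1, so that a difference was built into its being tested, and with the offset of 32 it was -0.91.

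*Ptprv* (OST-PTP), known from bone and testis, had signals of 84.1 to 333 at DN1 (median 241), 37.2 to 96 at DN2 (median 59.9) and 75.2 to 153 at DN3 (median 109). It fell in 8 of 8 pools, by 1.86 ± 0.17 on the log2 scale (adjusted p = 5.37e-07), and the DN1 array of control pool 3, at 84.1, was the only one within the DN2 range. *Ptprj* (CD148), which acts on Src family kinases in leukocytes, fell less, by 0.66 ± 0.11 on the log2 scale (adjusted p = 0.000126), with signals of 44.1 to 108 at DN1 and 32.8 to 62.7 at DN2.

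*Ptprc* (CD45), the leukocyte common antigen, had signals of 6460 to 10400 at DN1 (median 8550) and 3680 to 5490 at DN2 (median 4310). The stages did not overlap, and *Ptprc* fell in 8 of 8 pools, by 0.94 ± 0.10 on the log2 scale (adjusted p = 1.91e-06). The R4 receptors, paralogues that can activate Src family kinases, differed from each other in outcome: *Ptpra* fell by 0.58 ± 0.08 on the log2 scale (363 to 451 at DN1, 202 to 336 at DN2, adjusted p = 2.33e-05), and *Ptpre* was not called (0.12, 95% interval -0.16 to 0.40). *Ptpre* was higher at DN2 in only 2 of 8 pools, control pool 3 (1.23) and TLX1 pool 2 (0.43), the pools that stood apart at DN1.

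Of the SH2-domain phosphatases, which dock on phosphorylated receptors and adaptors, SHP-1 (*Ptpn6*) fell and SHP-2 (*Ptpn11*) was not called. *Ptpn6* had signals of 960 to 1360 at DN1 (median 1160) and 415 to 695 at DN2 (median 637). The stages did not overlap, and *Ptpn6* fell in 8 of 8 pools, by 0.92 ± 0.07 on the log2 scale (adjusted p = 8.44e-08). *Ptpn11* had signals of 757 to 876 at DN1 and 759 to 951 at DN2, a log2 difference of -0.0043 with a 95% interval of -0.13 to 0.12.

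Among the PEST phosphatases, cytosolic enzymes that bind Csk or PSTPIP adaptors, *Ptpn22* fell and the other two were not called. *Ptpn22* had signals of 1040 to 2350 at DN1 (median 1780) and 593 to 1100 at DN2 (median 869). Its stages overlapped at 1 array, the DN1 array of control pool 3 at 1040. *Ptpn22* fell in 8 of 8 pools, by 1.00 ± 0.13 on the log2 scale (adjusted p = 1.06e-05). *Ptpn12* (-0.26, 95% interval -0.51 to -0.02, adjusted p = 0.0564) and *Ptpn18* (-0.23, 95% interval -0.48 to 0.03, adjusted p = 0.113) were called lower once the 2 pools that stood apart were left out (-0.43, adjusted p = 0.000812, and -0.43, adjusted p = 0.000357).

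The FERM-domain phosphatases, which sit at the membrane skeleton and mostly carry PDZ domains too, split in direction, 2 higher and 2 lower of 5 tested, against 28.5% and 31.2% of all probe sets. *Ptpn3* (PTPH1) and *Ptpn4* (PTP-MEG1) are close paralogues with the same order of domains. *Ptpn3* had signals of 64.9 to 103 at DN1 (median 79.2), 294 to 365 at DN2 (median 338) and 273 to 409 at DN3 (median 333). The lowest DN2 array lay far above the highest DN1 array, and *Ptpn3* rose in 8 of 8 pools, by 2.10 ± 0.08 (adjusted p = 2.13e-10), which is the smallest adjusted p among the members. *Ptpn4* went the other way in 8 of 8 pools, from 558 to 926 at DN1 (median 759) to 205 to 343 at DN2 (median 306), and fell by 1.36 ± 0.13 on the log2 scale (adjusted p = 6.36e-07).

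*Ptpn13* (PTP-BL), a large scaffold with several PDZ domains, had signals of 221 to 434 at DN1 (median 309), 39.6 to 88.5 at DN2 (median 54) and 67.4 to 344 at DN3 (median 117). It fell in 8 of 8 pools, by 2.45 ± 0.21 on the log2 scale (adjusted p = 1.94e-07), with no overlap of DN1 and DN2. *Ptpn14* (PEZ), which binds the Hippo pathway factor YAP, had signals of 32 to 68.3 in 6 DN1 arrays, 397 and 633 in those of TLX1 pool 2 and control pool 3, and 114 to 258 at DN2. It rose in 6 of 8 pools and fell in these 2, so that its difference of 1.28 ± 0.41 (adjusted p = 0.0148) became 2.07 ± 0.11 without them (adjusted p = 1.38e-07). With all other pools kept, leaving out control pool 1, 2 or 4 or TLX1 pool 3 took its adjusted p to 0.0517 to 0.0582. *Ptpn21*, the paralogue of *Ptpn14*, was not called (-0.41, 95% interval -1.11 to 0.29). Its weaker probe sets were lower at DN2 (-1.33, adjusted p = 0.0158, and -1.96, adjusted p = 0.0124, limma with no filter).

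The promoters of 4 members with large and opposite changes are shown to set the rising *Ptpn3* and *Ptprf* beside the falling *Ptpn4* and *Ptpn13*. Each is the RefSeq window of 300 bases, 250 before to 50 after an annotated start, on GRCm38.p6 and in the direction of the gene, at chr4:57301788-57302087 (*Ptpn3*, minus strand), chr4:118291348-118291647 (*Ptprf*, minus), chr1:119837022-119837321 (*Ptpn4*, minus) and chr5:103424942-103425241 (*Ptpn13*, plus). The *Ptpn3* window lies well inside the annotated span of its gene (chr4:57190841-57339040), so it belongs to an internal start. That of *Ptpn4* also lies within the span of its gene (chr1:119652467-119837585). Capitals mark every match, on either strand, to the E box letters CAGGTG or the GC box letters GGGCGG, and matches of the GC box may overlap each other.
Ptpn3: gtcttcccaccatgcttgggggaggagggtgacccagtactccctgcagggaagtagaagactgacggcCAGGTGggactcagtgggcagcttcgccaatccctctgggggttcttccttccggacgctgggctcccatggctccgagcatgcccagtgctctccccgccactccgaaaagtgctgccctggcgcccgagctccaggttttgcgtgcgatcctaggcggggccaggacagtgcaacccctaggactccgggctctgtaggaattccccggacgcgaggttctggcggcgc
Ptprf: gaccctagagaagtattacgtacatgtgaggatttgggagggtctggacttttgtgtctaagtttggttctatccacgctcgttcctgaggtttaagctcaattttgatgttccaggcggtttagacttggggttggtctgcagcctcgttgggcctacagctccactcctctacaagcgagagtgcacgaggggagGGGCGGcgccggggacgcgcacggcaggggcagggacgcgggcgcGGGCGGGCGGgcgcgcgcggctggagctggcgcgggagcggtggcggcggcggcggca
Ptpn4: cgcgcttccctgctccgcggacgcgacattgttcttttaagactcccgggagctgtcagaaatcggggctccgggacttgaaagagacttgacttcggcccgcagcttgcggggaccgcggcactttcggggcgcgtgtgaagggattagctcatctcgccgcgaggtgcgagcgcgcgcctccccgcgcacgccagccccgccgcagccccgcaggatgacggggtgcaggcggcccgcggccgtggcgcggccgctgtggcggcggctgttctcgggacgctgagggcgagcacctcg
Ptpn13: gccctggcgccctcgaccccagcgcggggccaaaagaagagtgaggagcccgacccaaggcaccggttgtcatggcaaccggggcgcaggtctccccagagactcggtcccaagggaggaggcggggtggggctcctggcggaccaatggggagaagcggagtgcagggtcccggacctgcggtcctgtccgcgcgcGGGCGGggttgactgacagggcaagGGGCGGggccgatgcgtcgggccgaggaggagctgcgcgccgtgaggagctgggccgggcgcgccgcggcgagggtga
The *Ptpn3* window holds 1 E box and no GC box, *Ptprf* 3 GC boxes, *Ptpn13* 2 GC boxes and *Ptpn4* neither. The GC content was 65.3% for *Ptpn3*, 64% for *Ptprf*, 71% for *Ptpn4* and 74% for *Ptpn13*. Of 32851 promoter windows of the mouse genes given, 20.2% hold the E box and 35.7% the GC box. Windows were found for 29 of the 33 phosphatase genes, with 42 windows in all, of which 10 hold an E box and 22 a GC box. A match of letters is a description, and no binding was measured.

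Of the members set at membranes of the endoplasmic reticulum or of vesicles, *Ptpn9* (PTP-MEG2), which has a lipid-binding SEC14 domain, had signals of 261 to 505 at DN1 (median 363) and 135 to 201 at DN2 (median 190). DN1 and DN2 did not overlap. It fell in 8 of 8 pools, by 1.03 ± 0.10 on the log2 scale (adjusted p = 8.95e-07). *Ptpn1* (PTP1B), anchored in the endoplasmic reticulum and known for insulin and JAK signalling, fell in 8 of 8 pools by 0.55 ± 0.07 on the log2 scale (643 to 1010 at DN1, 393 to 708 at DN2, adjusted p = 8.17e-06). *Ptpn23*, of the endosomal sorting machinery, was not called (0.19, 95% interval -0.03 to 0.41).

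**Figure D2:**
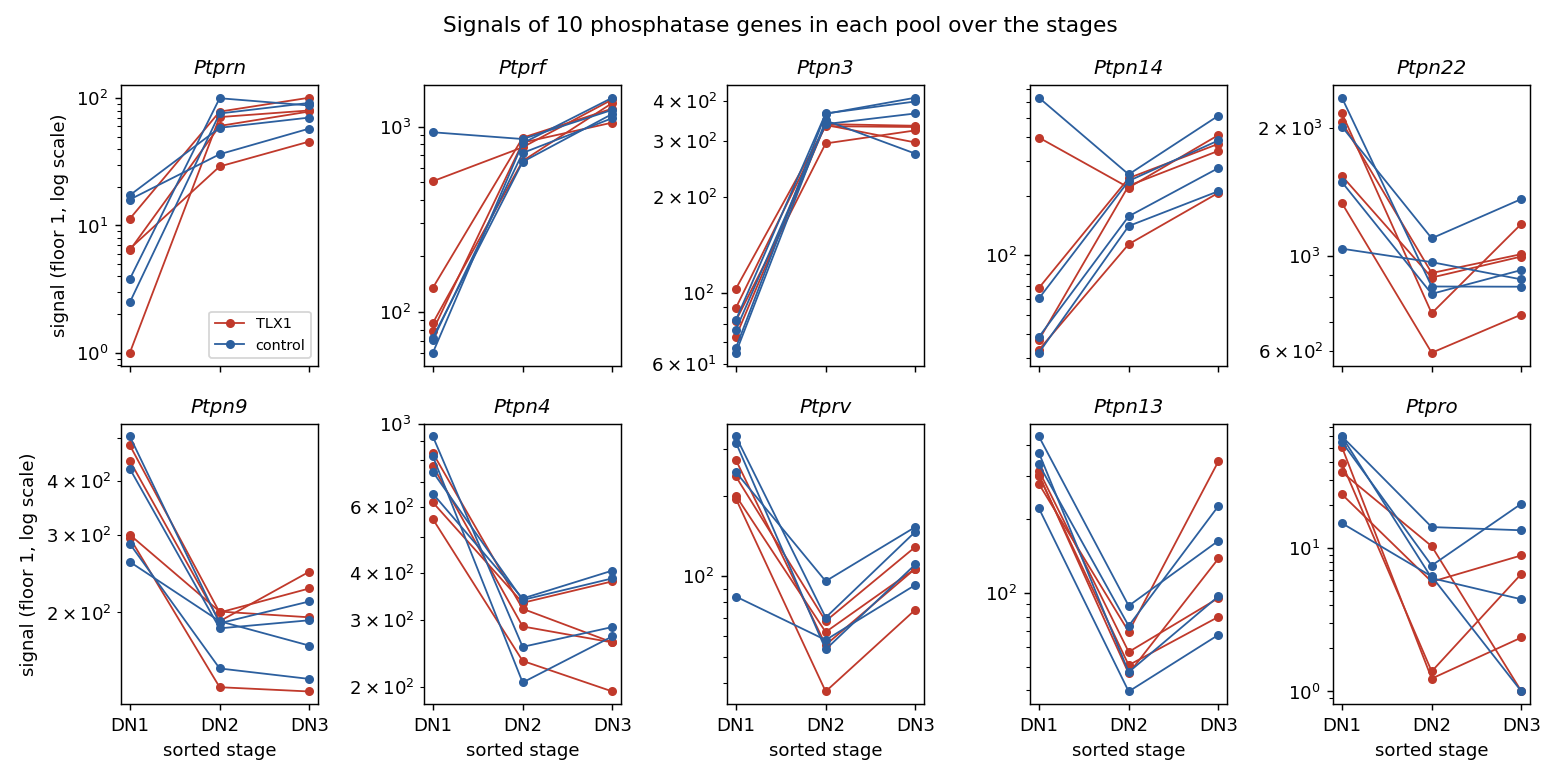
Signal of the 10 members with a 2-fold or larger called difference between DN1 and DN2, in each of 8 pools (4 TLX1, 4 control) at DN1, DN2 and DN3; each line joins the arrays of 1 pool and the vertical axis is on a log scale with its own range for each gene. *Ptpn3* keeps its DN2 level at DN3, *Ptpn13* and *Ptprv* turn upward in all 8 pools, and 2 DN1 arrays lie high for *Ptprf* and *Ptpn14*.

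The 9 members below the filter had signals of 0.272 to 34.9. *Ptpn5* (STEP, a brain phosphatase of ERK kinases) lay closest to the threshold, with a mean log2 signal of 3.13 against 3.17, and *Ptpro*, at 3.25, was the lowest member to pass. *Ptpn5* had 14.6 to 34.9 at DN1 and 0.272 to 11.9 at DN2, lower in 8 of 8 pools. With no filter, *Ptpn5* (-2.39, adjusted p = 0.00178), *Ptprz1* (-1.58, adjusted p = 0.00679) and *Ptprg* (1.63, adjusted p = 0.00256), the latter pair being the carbonic-anhydrase-like R5 receptors of nervous tissue, were called as well. The remaining 6 were not called with no filter.

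**Figure D3:**
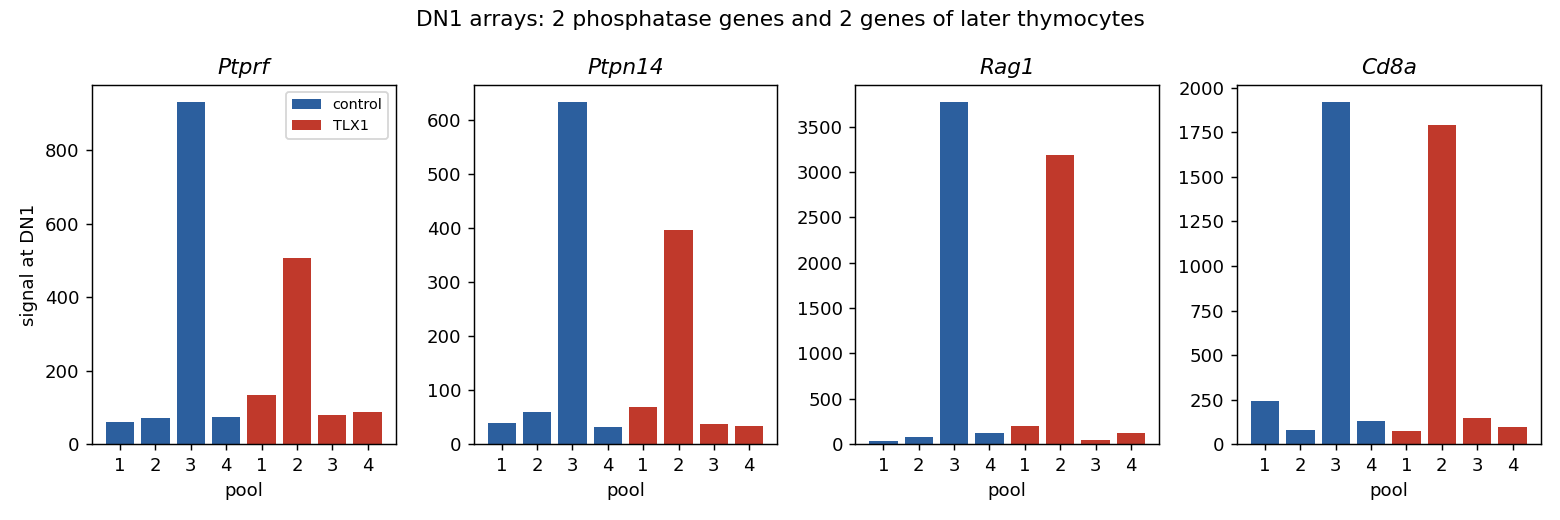
Signal (linear, from 0) of *Ptprf*, *Ptpn14*, *Rag1* and *Cd8a* in the 8 DN1 arrays, control pools 1 to 4 in blue and TLX1 pools 1 to 4 in red. The arrays of control pool 3 and TLX1 pool 2 are the highest for all 4 genes, with *Rag1* at 3770 and 3190 against 35.5 to 199 elsewhere.

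Markers of other cells moved with the stage. The summed signal of 5 NK cell markers was 10300 to 23100 in the DN1 arrays and 2390 to 3080 at DN2, and 5 of 5 fell. That of 10 myeloid markers was 12300 to 33200 and 1320 to 1900 (8 of 9 tested fell), and that of 6 dendritic cell markers 2910 to 7850 and 202 to 691 (5 of 5 tested fell). The B cell sum was 219 to 553 and 475 to 713, the mast cell sum 725 to 2120 and 1230 to 2210, the endothelial sum 136 to 249 and 91.6 to 237, and the epithelial and stromal sum 127 to 257 and 546 to 819, the last through *Epcam* (2.83, adjusted p = 8.92e-10) while *Krt8* fell by 0.83 on the log2 scale (adjusted p = 0.00315). Of 4 B cell markers tested, *Vpreb1* was called higher (3.64) and *Blnk* lower (-2.53). Of 3 mast cell markers tested, *Cpa3* was called higher (1.73), and *Cma1* (-4.90) and *Mcpt8* (-4.23) lower. *Ptprc*, *Ptpn6* and *Ptpn22* are also expressed in NK or myeloid cells. The part of these cells in the lower phosphatase signals at DN2 was not tested. The DN1 array of control pool 3, with high *Rag1*, had the lowest NK sum (10300). Its B cell (219), mast cell (725) and epithelial and stromal (127) sums were also the lowest. Its myeloid sum was not (14000, against 12300 in TLX1 pool 3). Among tested members it had the lowest DN1 signals of *Ptpro*, *Ptprv*, *Ptpn22*, *Ptpn18*, *Ptpn9*, *Ptpre*, *Ptpn1* and *Ptpn12*, and of *Ptpn3*, which rose at DN2. It was not the lowest for *Ptprc* (7060) or *Ptpn6* (1010). The cause was not tested.

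From DN2 to DN3, the second step, few members moved. Of the 33 genes, 2 were higher, none was lower, 22 were not called and 9 lay below the filter, where 6.93% of all probe sets were higher and 4.07% lower (limma; 4 members and 28.9% of probe sets had an unadjusted p under 0.05, and 2 were lower with median centring). *Ptpn13* rose by 1.19 ± 0.21 (adjusted p = 0.00308) and *Ptprv* by 0.89 ± 0.17 (adjusted p = 0.00614), each in 8 of 8 pools. Both had fallen at DN2, and at DN3 their medians, 117 and 109, remained under their DN1 medians of 309 and 241. *Ptpn13* was most variable at DN3, from 67.4 in control pool 2 to 344 in TLX1 pool 3, and its call was lost with the median of its 2 probe sets (0.45, adjusted p = 0.281), of which the weaker lay below the filter.

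*Ptprf* and *Ptpn14* also had higher signals at DN3 than at DN2 in 8 of 8 pools, which 9.7% of all probe sets did, but were not called (0.70 ± 0.42, adjusted p = 0.286, and 0.75 ± 0.41, adjusted p = 0.244). The fit takes its error from all 3 stages, and so from the uneven DN1 arrays. Without the 2 pools that stood apart they were 0.70 ± 0.13 (adjusted p = 0.00711) and 0.69 ± 0.11 (adjusted p = 0.00388), and with the DN2 and DN3 arrays alone 0.70 ± 0.09 (adjusted p = 0.00263) and 0.75 ± 0.07 (adjusted p = 0.000788). *Ptprc* was higher in 8 of 8 pools too (0.20 ± 0.10, adjusted p = 0.196), and was called with the DN2 and DN3 arrays alone (0.20 ± 0.06, adjusted p = 0.0465). *Ptpn11* (-0.13) and *Ptpre* (-0.24) were lower in 8 of 8, where 6.75% of probe sets were, with no call. *Ptpn21* was at -1.003 ± 0.33 (adjusted p = 0.0617), and was called lower without the 2 pools (adjusted p = 0.0415) and with the DN2 and DN3 arrays alone (adjusted p = 0.0479). Its mean log2 signal was 4.10 at DN2 and 3.10 at DN3, the latter under the filter threshold of 3.17. It passed the filter only through DN1 and DN2, so that a difference was built into its being tested. Its next probe set did not follow (-0.30, adjusted p = 0.735, limma with no filter). *Ptpn3* had a log2 difference of -0.0016, with a 95% interval of -0.17 to 0.17.

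The third question was whether TLX1 pools differed from control pools. None of the 24 tested members was called at DN1, DN2 or DN3 (limma, 4 against 4 pools), where 0.0037%, 0.0037% and 0.0185% of all probe sets were called. At an unadjusted p under 0.05 limma gave 1 member at DN1, none at DN2 and none at DN3 (1.72%, 3.53% and 6.02% of probe sets). The methods' t-test, adjusted by Benjamini-Hochberg, called none. At the study's own threshold (an unadjusted p of at most 0.05 and at least 1.4-fold) the methods' t-test also called none of the members at any stage, against 1.01%, 1.46% and 3.04% of probe sets. At DN1 the 95% interval for *Ptprf* was -2.01 to 2.36, and -0.06 to 1.12 without the 2 pools that stood apart (0.53 ± 0.24).

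**Figure D4:**
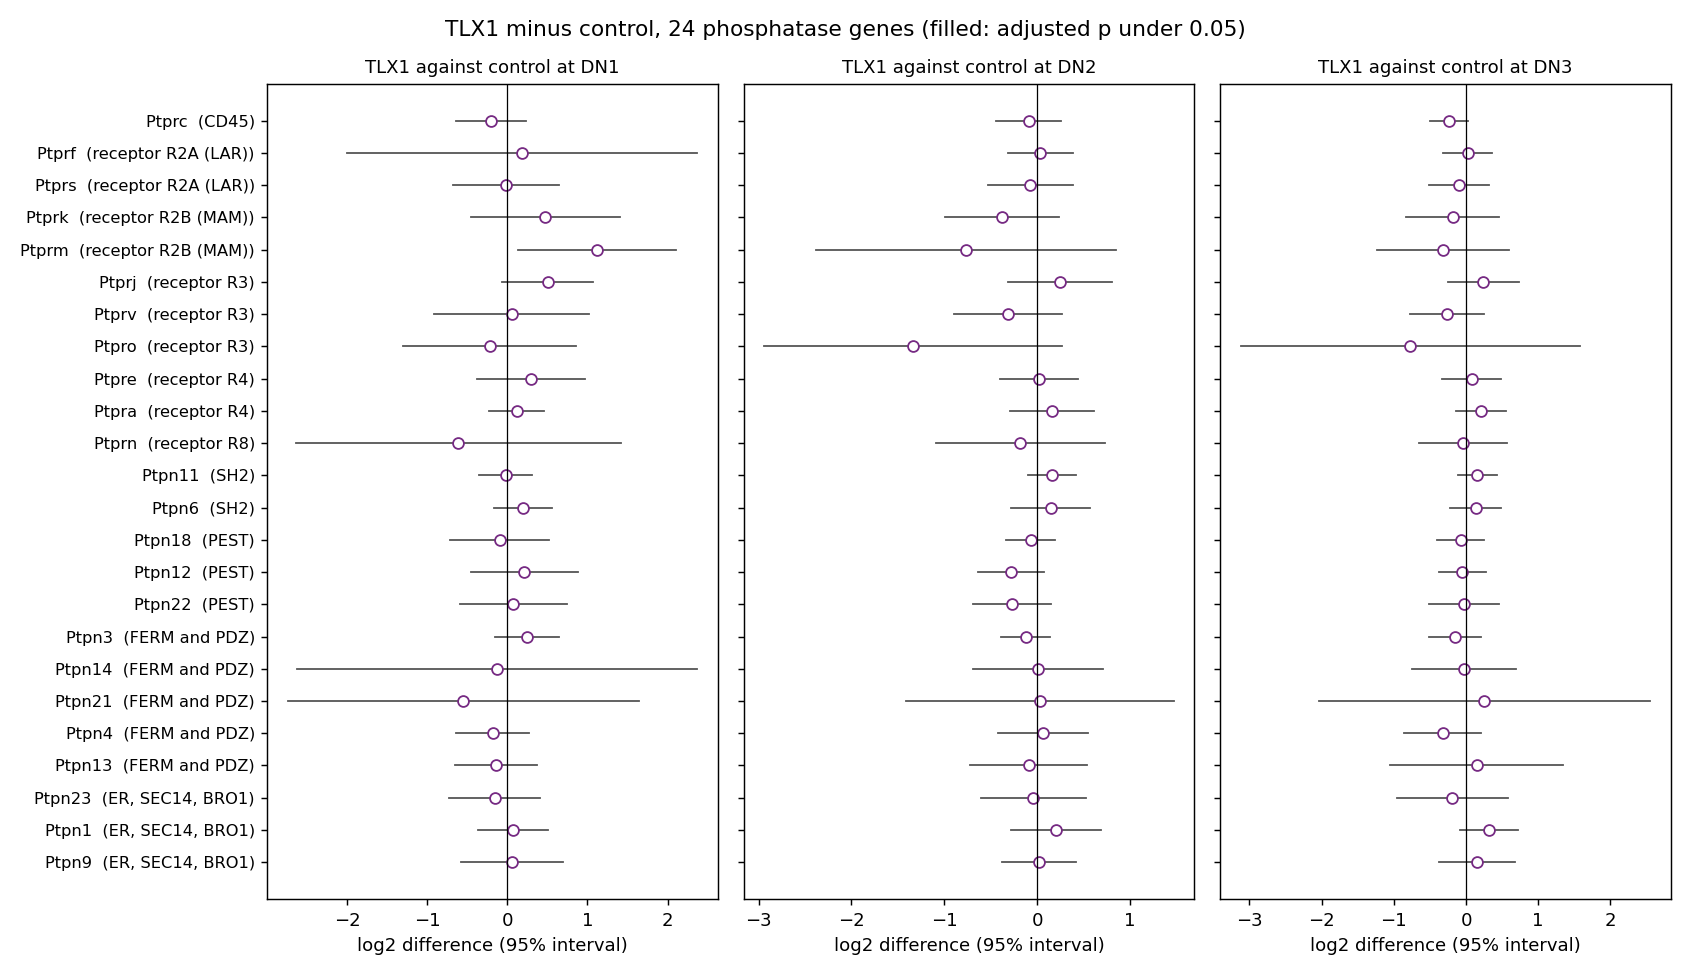
Log2 difference TLX1 minus control for the 24 phosphatase genes that passed the filter, at DN1, DN2 and DN3 (4 pools against 4, points with 95% intervals, each panel on its own scale). All points are open, since none has an adjusted p under 0.05, and only the interval of *Ptprm* at DN1 leaves out 0.

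At DN1, *Ptprm* (PTPμ), a homophilic adhesion receptor, had signals of 17, 22.3, 19 and 21.4 in TLX1 pools 1 to 4 and of 12.1, 16.4, 10 and 3.5 in control pools 1 to 4. The groups did not overlap, as was so for 1.25% of all probe sets, but the signals are low and the difference of 1.12 ± 0.43 (n = 4 and 4) had an adjusted p of 1 with limma. It was 0.66 without control pool 4, whose signal of 3.5 was the lowest, and 0.30 with the offset of 32. *Ptprj* had 98, 66.8, 108 and 76 in TLX1 pools and 82.7, 65.7, 55.8 and 44.1 in control pools, with overlap (0.50 ± 0.25, adjusted p = 1 with limma). *Ptpn3* had 103, 72.9, 89.7 and 81.8 against 67.2, 76.6, 64.9 and 82.2, also with overlap (0.25 ± 0.18, adjusted p = 1 with limma).

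At DN2, *Ptpro* had 1.38, 5.82, 10.3 and 1.23 in TLX1 pools and 14, 7.55, 6.34 and 6.17 in control pools, with overlap (-1.34 ± 0.70, adjusted p = 1 with limma). It was -0.88 without TLX1 pool 4 and -0.15 with the offset of 32. *Ptpn12* (PTP-PEST), a cytoskeletal regulator, had 661, 635, 677 and 941 against 811, 900, 903 and 885, where 3 of 4 TLX1 pools lay under all control pools and TLX1 pool 4 above them (-0.28 ± 0.16, adjusted p = 1 with limma). *Ptpn22* had 912, 890, 734 and 593 against 1100, 848, 967 and 815 (-0.27 ± 0.18, adjusted p = 1 with limma). The groups of *Ptpn11* did not overlap (2.75% of probe sets), with 833 to 951 in TLX1 and 759 to 810 in control pools, a log2 difference of 0.16 ± 0.11.

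At DN3, *Ptprc* had 4490, 5010, 4660 and 4290 in TLX1 pools and 5590, 5220, 5590 and 5390 in control pools. Its groups did not overlap (3.89% of probe sets), and the difference was small (-0.24 ± 0.12, adjusted p = 0.864 with limma). With quantile normalization it was -0.02. *Ptpn1* had 676, 620, 650 and 630 against 532, 689, 403 and 484 (0.32 ± 0.17, adjusted p = 0.903 with limma). *Ptpn4* had 262, 381, 262 and 194 against 388, 288, 407 and 272, with overlap (-0.32 ± 0.23, adjusted p = 0.963 with limma). An index of RNA integrity, the log2 ratio of 3′ to 5′ probe sets of *Actb* and *Gapdh*, was 0.101 to 0.339 in the TLX1 and 0.501 to 0.572 in the control arrays at DN3. The index did not overlap between the genotypes at DN3, so that its part and that of the transgene cannot be told apart there. Its means in TLX1 and control arrays were also apart at DN1 (0.0572 and 0.257) and at DN2 (0.216 and 0.518). With the index as a covariate, none of these 3 genes was called (limma), and the differences became -0.43 ± 0.31 for *Ptprc*, 0.48 ± 0.50 for *Ptpn1* and -1.21 ± 0.58 for *Ptpn4*.

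Whether the TLX1 difference itself changed between stages was tested as an interaction. No member was called for DN2 against DN1 or for DN3 against DN2, and 0% of all probe sets were (limma). At an unadjusted p under 0.05 there were 3 members for the first, *Ptprm* (-1.89 ± 0.70), *Ptpn12* (-0.49 ± 0.23) and *Ptpn3* (-0.37 ± 0.16), and none for the second, with 3.6% and 2.89% of probe sets. In the control pools alone, 5 members were higher and 11 lower at DN2 than at DN1 (21.9% and 22.8% of probe sets), and in the TLX1 pools alone, 4 were higher and 13 lower (22.8% and 25.1%).

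Tyrosine kinases were read from the same arrays, among them the Src family kinases that CD45 keeps ready and the R4 receptors can activate. Of 16 listed Src, Csk, Syk and Tec family kinases, 12 were matched to the array and 11 tested, of which 2 were higher and 7 lower at DN2 (28.5% and 31.2% of all probe sets). The summed NK, myeloid and dendritic cell markers were lower at the same step, and their part in this and the next 2 lists was not tested. *Zap70*, the kinase of the antigen receptor's zeta chains, fell by 3.06 ± 0.12 on the log2 scale (adjusted p = 3.21e-10) and rose by 0.67 ± 0.12 at DN3 (adjusted p = 0.00442). *Txk* fell by 2.90 ± 0.17 and *Fgr*, a myeloid Src family kinase, by 2.14 ± 0.15 on the log2 scale at DN2, while *Btk*, the Tec family kinase of B and myeloid cells, rose by 1.58 ± 0.11 at DN2 and fell by 1.95 ± 0.11 on the log2 scale at DN3 (adjusted p = 1.56e-07).

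Of 25 partners of the phosphatases and inhibitory receptors, 23 were tested, of which 5 were higher and 15 lower at DN2 (28.5% and 31.2% of all probe sets). The adaptors *Dok2*, *Lax1* and *Sit1* fell by 2.37 ± 0.11, 2.01 ± 0.10 and 2.92 ± 0.16 on the log2 scale, and *Pstpip1*, the adaptor of the PEST phosphatases, by 1.41 ± 0.09 (largest adjusted p = 2.1e-08). Of these 23, 2 rose and 6 fell at DN3 (6.93% and 4.07% of all probe sets), among them *Cd5*, an inhibitory co-receptor that binds SHP-1, which fell by 1.02 ± 0.13 on the log2 scale (adjusted p = 0.000411), and *Pag1*, which recruits Csk, which rose by 0.44 ± 0.08 (adjusted p = 0.0028).

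Of the 24 dual-specificity phosphatases (*Dusp* genes), which also act on phosphorylated serine and threonine, 15 were tested, and 2 were higher and 8 lower at DN2 (28.5% and 31.2% of all probe sets). *Dusp3* fell by 3.04 ± 0.34, *Dusp22* by 1.45 ± 0.09, *Dusp7* by 1.38 ± 0.13 and *Dusp10* by 1.09 ± 0.19 on the log2 scale. At DN3, *Dusp6*, which acts on ERK kinases, fell by 1.15 ± 0.18 on the log2 scale (adjusted p = 0.00167) and *Dusp22* rose by 0.63 ± 0.09 (adjusted p = 0.00103). No gene of these 3 lists was called between TLX1 and control at any stage; the smallest unadjusted p was 0.00357 (*Dusp3* at DN2, -0.85 ± 0.21).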

How the data were processed

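The deposited intensity values are MAS5 signals of the Affymetrix Expression Console, named in the submitters' notes, and the authors scaled them on every array to a 2% trimmed mean of 150. The background reduction, flag filter and further normalization that the study's methods describe are not part of these values and were not applied. Array medians were 15.1 to 24.3, and replicate arrays correlated at 0.905 to 0.96.

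Of 45101 probe sets, 64 array controls were set aside. Signals under 1 were set to 1 (4.39% to 11.3% per array) and log2 transformed, and the rest (45037) were ranked by mean log2 signal. The top 60%, 27022 probe sets with a mean of at least 3.17 (a geometric mean signal of 9.02), were kept. Of the 45037, 34945 match 1 gene in the platform annotation and 932 several, and only the former were named. No values outside the 24 arrays' columns were used.

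Stages were compared with limma 3.58.1 (R 4.3.3) on all 24 arrays with the pool as a block, averaged over both genotypes. Mouse numbers in the labels tie the 3 arrays of a pool, whose deviations correlated at 0.177 to 0.626. TLX1 and control were compared within each stage, and the interaction between stages in the blocked fit. Benjamini-Hochberg adjustment covered all 27022 probe sets, and calls have an adjusted p under 0.05. Pools are separate groups of animals, and their number (4 per genotype) limits the precision. Errors are limma standard errors. The fits were tested on simulated data with known changes.

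Values by pool or as ranges are given for members called between stages at 2-fold or more and for the 3 members with the smallest p per stage of TLX1 against control, and up to 4 genes per comparison of the other lists. *Ptpn11*, *Ptpn5* and the other members outside this rule were described after their values were seen. The members and lists were chosen with earlier results of these data known. Of the phosphatase genes, 1 is not reported here. Alternatives were another normalization, filter, offset, probe set summary, block, covariate and test, and leaving out pools. Promoter windows are RefSeq's, matched by symbol.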

Additional observations from a re-analysis of the deposited data

Results flagged for a closer look

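For 19 members, the 4 pools of each of the 6 groups were checked on the log2 scale for 1 pool far from the other 3 (Dixon's criterion, which chance passes in about 5% of groups), and 9 of 114 groups had one. The TLX1 pool 4 array at DN2 gave 5 of them: *Ptprs* at 447 (660 to 685 in the other 3 pools), *Ptpn3* at 294 (333 to 338), *Ptpn9* at 135 (191 to 201), *Ptpn14* at 114 (221 to 247) and *Ptpn12* at 941 (635 to 677). Control pool 4 at DN2 had *Ptpn9* at 149 (184 to 191).

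At DN1, the other 3 came from the pair of pools with high *Rag1*. Control pool 3 had *Ptprf* at 931 (60.3 to 72.8 in the other 3 pools) and *Ptpro* at 14.9 (54.9 to 60), and TLX1 pool 2 had *Ptprk* at 28.5 (13.2 to 14.9). No member's TLX1 difference was called as changing between stages. The causes were not tested.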

How the results depend on the processing

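For DN2 against DN1, the counts of 6 members higher and 11 lower became 3 and 9 with probe sets summarised per gene by their median (20 members tested), where *Ptpn14* (0.59, adjusted p = 0.109) and *Ptprs* (0.13, adjusted p = 0.545) lost their calls and *Ptprj*, *Ptprk* and *Ptpro* fell below the filter. The counts were 9 and 11 with median centring, which moved the median of all probe sets from -0.06 to 0.29 and the share of higher among all calls from 47.7% to 74%, and 7 and 13 with quantile normalization (58.7%). Leaving out 1 pool gave 5 to 6 higher and 11 to 13 lower, and no replicate block 5 and 11, without *Ptpn14* (adjusted p = 0.0535). Of 317 values of the 17 called members under the alternatives, 310 kept direction and call, 7 lost the call and none reversed.

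For DN3 against DN2, the 2 members higher and 0 lower became 2 lower with median centring (*Ptpn11* and *Ptpn21*), 1 higher with the median of probe sets, 1 lower (*Ptpn21*) with the 3′ to 5′ index as a covariate, 4 higher and 1 lower without TLX1 pool 2 and control pool 3, and 5 higher and 1 lower with the DN2 and DN3 arrays alone, a setting added after seeing the data, as was a filter on linear means, under which *Ptpn5* was also called lower at DN2. Leaving out 1 pool gave 2 higher each time and 0 to 1 lower, the 1 (*Ptpn21*) without control pool 3. *Ptprc* was called higher with quantile normalization (0.29, adjusted p = 0.00509).

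For TLX1 against control, 0 members were called at any stage under any alternative, the replicate block (same-numbered pools, which correlated at -0.345 to 0.482 and so are not paired) and the sex covariate included, and 0 for either interaction. The causes of these changes were not tested. Low signals limit *Ptprn*, *Ptpro*, *Ptprk*, *Ptprm* and *Ptpn21*.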
